A study of Citrus sinensis with 36 samples.

Results

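MYB proteins are transcription factors that share a DNA-binding domain built from imperfect repeats, and they form one of the largest families of regulators in plants. Of the 29654 genes in the sweet orange (Citrus sinensis) table, 155 carried a Swissprot protein description with MYB as a word or at the start of a word, and these are the MYB genes described here. The descriptions matched 69 different protein entries, mostly of Arabidopsis and otherwise of snapdragon, rice, potato, maize, human and the slime mould Dictyostelium. Each name used below is therefore that of the closest protein of another species, and what is said of a protein's function was learned in that species and not in citrus. A second annotation, to citrus proteins, gives another name for several of these genes, and not every such case is pointed out below.

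Plant R2R3-MYB proteins, with a pair of repeats, switch on or repress the genes for lignin, flavonoids, cuticular wax, cutin and suberin, and others respond to drought, cold, wounding and abscisic acid. In citrus fruit these pathways meet in the waxy epidermis and pigmented rind of the peel, and in the segment membranes and juice sacs of the pulp, whose walls affect how the fruit chews. The GARP proteins, which hold a single MYB-like domain and include relatives of the phosphate starvation regulator PHR1, and small proteins with a single repeat complete the family as it was searched for here.

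RNA was sequenced from peel and pulp, separated by hand, of fruit picked at 220 days after flowering (DAF). The late-ripening Valencia oranges (VO, written SO in the design text) were represented by the varieties Cutter, Delta and Rohde Red Valencia, and the mid-ripening common sweet oranges (CO) were Jincheng, Taoye and Xianfeng. Each variety had 3 libraries per tissue, 36 in all, and the sample records give 3 trees per library, whereas the study's methods give a smaller number. At this fruit age, by the study's account, CO fruit had matured while VO fruit were still coloring, and a difference of variety group cannot be told apart from one of maturity.

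Values are FPKM, fragments per kilobase of gene scaled to a fixed number of mapped fragments, and differences are on the scale log2(FPKM + 0.1), which understates the change of genes near 0.1 FPKM. Libraries held between 14.8 and 18.8 M mapped fragments, and MYB genes took 0.159% to 0.171% of them in VO peel, 0.166% to 0.174% in CO peel, 0.123% to 0.135% in VO pulp and 0.119% to 0.133% in CO pulp. VO was compared with CO over the 3 variety means of each group with limma, and its p-values reflect how much the varieties of a group vary. They are adjusted over all genes kept, and a gene is called at an adjusted p under 0.05. Variety values are given in the order Cutter, Delta and Rohde Red Valencia for VO and Jincheng, Taoye and Xianfeng for CO. In these bulk tissues, fewer cells of a type and less RNA per cell cannot be told apart.

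Of the 155 MYB genes, 37 had no fragment in any library and 83 were kept in neither tissue, where a gene was kept if at least 1 variety averaged 0.3 FPKM or more. The highest value of a single library among those 83 was 0.515 FPKM. In peel 69 were kept and in pulp 62, with 59 kept in both. Over all 29654 genes, 18375 were kept in peel and 17222 in pulp. The share kept in peel was 14 of 22 GARP genes, near that of all genes, and 7 of 8 genes matching MYB3R, human or Dictyostelium proteins. It was 1 of 9 genes matching regulators of organ and cell fate and 1 of 10 matching the root iron regulator MYB10. Near the bottom of the range, the match to MYB113 (Cs6g17570), which activates anthocyanin genes, averaged 0.0245 FPKM in VO peel, 0.0554 FPKM in CO peel, 0.0227 FPKM in VO pulp and 0.122 FPKM in CO pulp.

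The most abundant MYB gene in peel, and the third in pulp after MYB306 (Cs6g21210) and MYB1R1 (Cs5g04740), was a match to MYB44 (Cs3g23070), a regulator of the abscisic acid response. In peel it had 110.1, 106 and 158 FPKM in VO and 136, 121 and 140.1 FPKM in CO. In pulp it had 30.1, 49.8 and 56.4 FPKM in VO and 33.3, 34.5 and 48.9 FPKM in CO. The groups overlapped in both tissues, and neither difference was called (adjusted p = 0.685 in peel, 0.624 in pulp). Other abundant members were MYB1R1 (Cs5g04740), MYB306 (Cs6g21210), MYBS3 (Cs1g15730), which represses alpha-amylase when sugar is present in rice, the rice cold regulator MYB4 (Cs8g12680), PHL7 (Cs2g01490), a PHR1 relative, and MYBC1 (Cs6g16820). The match to the cell cycle regulator MYB3R-1 (Cs4g19160) averaged 16.7 FPKM in VO peel and 16.6 FPKM in CO peel, and 11.1 FPKM in both VO and CO pulp, a difference in pulp of 0.00 ± 0.07 (log2, SE).

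The comparison of VO with CO asks which regulators differ between varieties that chew and ripen differently. In peel 18 of the 69 MYB genes tested were called, 8 higher and 10 lower in VO, beside 20.4% of all genes tested (13.2% higher and 7.15% lower). In pulp 19 of 62 were called, 10 higher and 9 lower in VO, beside 19.5% of all genes (12.0% higher and 7.48% lower). The median log2 difference of the MYB genes was 0.01 in each tissue, beside 0.05 in peel and 0.02 in pulp over all genes. Members called in both tissues numbered 8, of which 5 were higher and 3 lower in VO, and no member was called in opposite directions. The share of all genes called in both tissues was not counted, so this number is no result about the members. In peel 6 members had been kept through 1 variety group only, and 2 of these were called, and in pulp 3 of 6 such members were called.

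**Figure D1:**
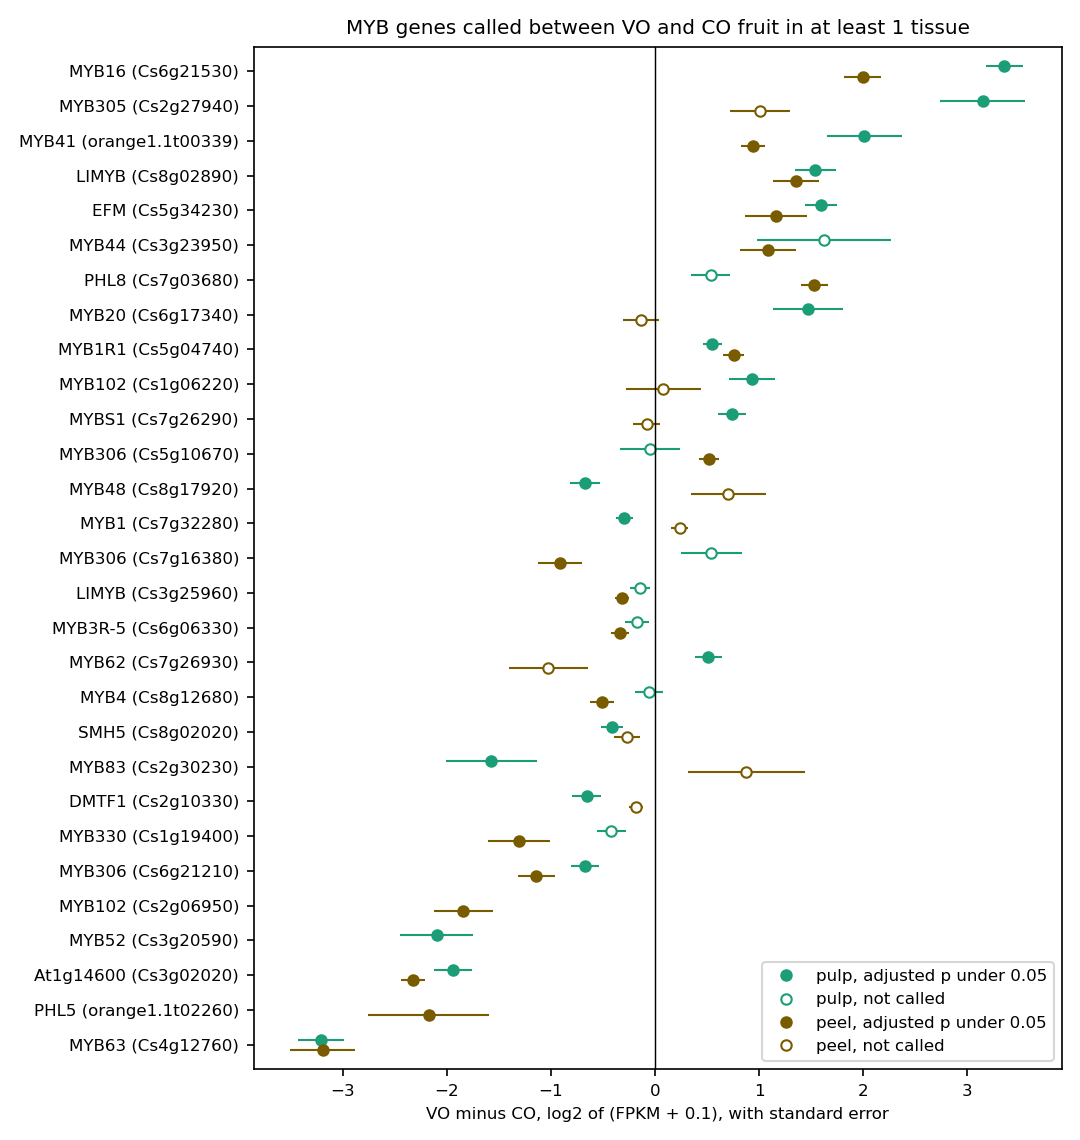
VO minus CO difference of the 29 MYB genes called in at least 1 tissue, on the log2(FPKM + 0.1) scale with its standard error (3 varieties per group). Green points are pulp and brown points are peel, filled where the adjusted p was under 0.05, and a missing point means that the gene was not kept in that tissue. MYB16 and MYB305 reached 3.36 and 3.15 in pulp, and MYB63 lay at -3.21 in pulp and -3.19 in peel.

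Variety means of the groups did not overlap for 28 of the 69 genes in peel, beside 41.7% of all genes, and for 28 of 62 in pulp, beside 42.7%. Single libraries did not overlap for 14 genes in peel and 11 in pulp, beside 17.7% and 18.3% of all genes, and all of these were called. By the stricter rule that each VO variety differs from each CO variety by at least 1 on the log2 scale in the same direction, with an adjusted p under 0.05 from the libraries, 5 genes passed in peel, beside 2.81% of all genes, 2 of them higher (1.63%) and 3 lower (1.18%). In pulp 8 passed, beside 3.79%, 5 of them higher (2.58%) and 3 lower (1.21%). Of the 3 lower in pulp, 2 matched regulators of the secondary wall and were kept there through CO alone, so the filter favours that direction. MYB16, MYB63 and the At1g14600 match passed in both tissues.

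Genes matching regulators of the cuticle and of suberin differed in both directions. All 5 of the 12 such genes that were kept in peel were called, 3 higher and 2 lower in VO, beside 20.4% of all genes. In pulp 3 of 5 were called, 2 higher and 1 lower, beside 19.5%. MYB306 Cs7g16380, lower in VO peel, was kept there through CO alone, so the filter favours that direction. MYB16, which controls cuticle formation and conical epidermal cells in Arabidopsis, and MYB41, which promotes suberin and cuticle genes there, were higher in VO in both tissues. MYB306 of snapdragon had 3 matches, which did not move together.

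In pulp MYB16 (Cs6g21530) had 8.07, 11.8 and 11.0 FPKM in VO and 0.766, 1.02 and 0.992 FPKM in CO. In peel it had 1.85, 2.38 and 1.64 FPKM in VO and 0.376, 0.414 and 0.465 FPKM in CO. No library of one group reached those of the other in either tissue. The difference was 3.36 ± 0.18 in pulp (log2, SE, adjusted p = 0.000361) and 1.99 ± 0.18 in peel (adjusted p = 0.00186), and the VO excess was larger in pulp by 1.36 (adjusted p = 0.0186 for the difference between tissues). A second annotation in the table, to citrus proteins, names this gene a myb-related protein Myb4, so its identity as the MYB16 of citrus is not settled by the descriptions.

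The gene described as MYB41 (orange1.1t00339) had 4.46, 5.04 and 6.56 FPKM in VO pulp and 0.689, 2.00 and 1.37 FPKM in CO pulp. In peel it had 2.90, 2.53 and 2.83 FPKM in VO and 1.48, 1.25 and 1.46 FPKM in CO. VO libraries were above every CO library in both tissues, by 2.01 ± 0.36 in pulp (adjusted p = 0.0125) and 0.94 ± 0.11 in peel (adjusted p = 0.00446). Without Rohde Red Valencia the pulp call was lost (adjusted p = 0.0548). The protein entry is listed as MYB17 in its identifier although its description reads MYB41, and the second annotation of the gene is transcription repressor MYB6.

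The most abundant MYB306 match (Cs6g21210) had 36.4, 37.6 and 24.99 FPKM in VO peel and 73.7, 61.8 and 80.8 FPKM in CO peel. In pulp it had 41.7, 32.1 and 40.3 FPKM in VO and 53.3, 68.2 and 60.3 FPKM in CO. It was thus lower in VO, with a difference of -1.14 ± 0.18 in peel at an adjusted p of 0.009 and -0.67 ± 0.13 in pulp (adjusted p = 0.0179), where the call was lost without Rohde Red or Delta Valencia (adjusted p = 0.0543 and 0.0536). The second match (Cs5g10670) went the other way in peel, with 8.47, 10.5 and 9.89 FPKM in VO and 6.99, 6.32 and 6.68 FPKM in CO (0.52 ± 0.09, adjusted p = 0.0143, lost without Rohde Red Valencia or Xianfeng at 0.0545 and 0.0533). The third (Cs7g16380), kept in peel through CO alone, averaged 0.245 FPKM in VO peel and 0.548 FPKM in CO peel, against 0.467 FPKM in VO pulp and 0.291 FPKM in CO pulp.

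Cuticle and epidermis genes that are no MYB genes also differed in both directions. The 6 genes of the list, which make wax alkanes, very long chain fatty acids and cutin, summed to 61.1 to 88.1 FPKM in VO pulp libraries and 15.6 to 41.1 FPKM in CO pulp libraries, and to 41.8 to 53.3 FPKM in VO peel and 77.0 to 122 FPKM in CO peel. None of the 6 was at 0 in any group. In pulp 5 were called, 3 higher and 2 lower in VO (median log2 difference 1.15), beside 19.5% of all genes. In peel all 6 were called, 3 higher and 3 lower (median -0.37), beside 20.4%. In each tissue 2 of these calls were of genes averaging under 0.3 FPKM in one of the groups. Glycerol-3-phosphate acyltransferase 8 (orange1.1t00375), of the cutin and suberin pathway, averaged 51.6 FPKM in VO pulp and 5.88 FPKM in CO pulp (3.16 ± 0.29, adjusted p = 0.00185) and so made up most of the VO pulp sum, while the alkane enzyme ECERIFERUM 1 (Cs1g02760) averaged 3.18 FPKM in VO peel and 36.4 FPKM in CO peel (-3.44 ± 0.21, adjusted p = 0.000707). The part of a different amount of epidermal tissue in the MYB differences was not tested.

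**Figure D2:**
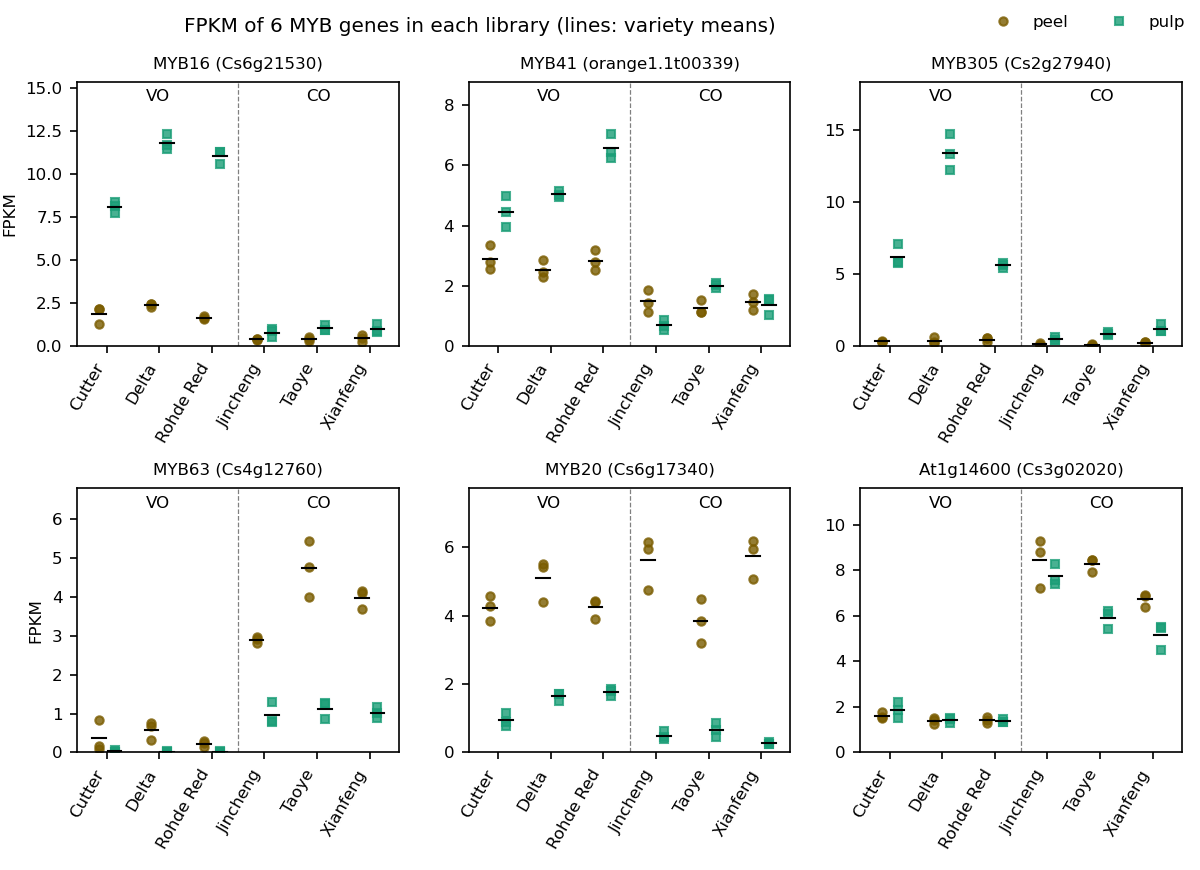
FPKM of 6 MYB genes in every library, with VO varieties left of the dashed line and CO varieties right of it. Brown circles are peel libraries, green squares pulp libraries and black lines the mean of 3 libraries. MYB16, MYB41 and MYB305 stood higher in VO pulp than in CO pulp, MYB63 and the At1g14600 match were lower in VO in both tissues, and MYB20 overlapped in peel.

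Genes matching regulators of the lignified secondary wall differed in both directions in pulp. Of the 13 such genes, 5 were kept in pulp and 4 of these were called, beside 19.5% of all genes. In VO 3 were lower (MYB63, MYB52 and MYB83) and 1 was higher (MYB20). The 3 that were lower had no VO variety at 0.3 FPKM in pulp and were kept through CO alone, so the filter favours that direction and their count says nothing of the group. In peel 4 were kept and MYB63 alone was called, beside 20.4% of all genes. MYB63 activates lignin genes directly in Arabidopsis, MYB83 is with MYB46 a master switch of wall thickening, MYB52 acts in the wall of fibres and in seed coat pectin, and MYB20 activates genes for phenylalanine and lignin.

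In peel MYB63 (Cs4g12760) had 0.368, 0.586 and 0.228 FPKM in VO and 2.90, 4.73 and 3.98 FPKM in CO. In pulp it had 0.0292, 0.0235 and 0.0165 FPKM in VO and 0.963, 1.13 and 1.02 FPKM in CO. The VO pulp values rest on 9 fragments over 9 libraries, beside 388 fragments in CO pulp. No libraries overlapped, and the difference was -3.21 ± 0.22 in pulp (adjusted p = 0.00086) and -3.19 ± 0.31 in peel (adjusted p = 0.00233).

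MYB52 (Cs3g20590) was all but restricted to pulp, with 0.105, 0.0992 and 0.264 FPKM in VO and 0.593, 1.09 and 1.14 FPKM in CO, a difference of -2.10 ± 0.35 (adjusted p = 0.0103). In peel it had 1 fragment in VO and 5 in CO over 9 libraries each. MYB83 (Cs2g30230) had 0.192, 0.0353 and 0.189 FPKM in VO pulp and 0.309, 0.550 and 0.945 FPKM in CO pulp (-1.57 ± 0.44, adjusted p = 0.0495), and its single libraries overlapped. MYB20 (Cs6g17340) was the member that was higher, with 0.943, 1.64 and 1.76 FPKM in VO pulp and 0.489, 0.651 and 0.271 FPKM in CO pulp (1.47 ± 0.33, adjusted p = 0.0275), while in peel it had 4.24, 5.11 and 4.24 FPKM in VO and 5.62, 3.84 and 5.73 FPKM in CO (adjusted p = 0.613). The MYB83 call was lost without any variety but Jincheng (adjusted p = 0.0689 to 0.135) and the MYB20 call without Jincheng, Rohde Red Valencia, Xianfeng or Delta Valencia (0.0502 to 0.103). The second annotation names the MYB52 match a myb-related protein 308-like and the MYB20 match ODORANT1, a petunia regulator of scent.

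The lignin list of the study, set beside these regulators, did not follow a single direction. Its 27 lignin and phenylpropanoid genes were chosen by the study on these samples and are therefore no independent evidence of direction. In peel 11 of the 24 tested were called, 4 higher and 7 lower in VO (median -0.07), beside 20.4% of all genes. In pulp 9 of the 23 tested were called, 7 higher and 2 lower (median 0.29), beside 19.5%. Cs2g10070, Cs9g15670 and Cs9g15750 of the list are described as berberine bridge enzyme-like and not as lignin enzymes. Of these, Cs9g15670 was called higher in VO peel, where CO averaged 0.0751 FPKM, and Cs2g10070 higher and Cs9g15750 lower in VO pulp. Phenylalanine ammonia-lyase (Cs6g11940), the entry enzyme of the pathway, averaged 37.5 FPKM in VO peel and 112 FPKM in CO peel (-1.57 ± 0.13, adjusted p = 0.00174), against 57.3 FPKM in VO pulp and 44.5 FPKM in CO pulp (0.37 ± 0.09, adjusted p = 0.0292). Caffeic acid 3-O-methyltransferase (Cs5g16290), which makes syringyl lignin precursors, averaged 10.8 FPKM in VO pulp and 0.876 FPKM in CO pulp (3.52 ± 0.26, adjusted p = 0.00104).

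NAC regulators of wall thickening and xylem markers were set beside these genes. In pulp both NAC genes tested, of 8 in the list, were called lower in VO, beside 7.48% of all genes. They were NAC10 (Cs2g05490) with 0.381 FPKM in VO and 2.16 FPKM in CO, and NAC30 (Cs3g22400) with 0.431 FPKM in VO and 1.02 FPKM in CO. In peel none of the 3 NAC genes tested was called by limma (median 0.21), and NAC73 (Cs2g16190) averaged 0.527 FPKM in VO and 0.220 FPKM in CO (adjusted p = 0.097). The 17 marker genes of vascular tissue and segment membranes, among them secondary wall cellulose synthases and laccases, summed to 8.98 to 15.5 FPKM in VO peel and 0.703 to 5.66 FPKM in CO peel. In pulp they summed to 1.32 to 7.05 FPKM in VO and 0.151 to 1.80 FPKM in CO. Of those tested, 3 of 6 in peel and 3 of 7 in pulp were called, all higher in VO. Over all genes 13.2% were called higher in peel and 12.0% in pulp. The 3 called in pulp averaged under 0.3 FPKM in CO, so the filter favours that direction there. Of the 17, 5 were at 0 throughout VO peel, 6 throughout CO peel, 6 throughout VO pulp and 7 throughout CO pulp. The part of a different amount of vascular tissue was not tested.

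Repressors of phenylpropanoid genes were kept in numbers of 4 per tissue. MYB330 (Cs1g19400), a snapdragon relative of the lignin repressor MYB308, had 3.46, 1.91 and 1.39 FPKM in VO peel and 4.69, 5.32 and 5.98 FPKM in CO peel. It was lower in VO peel, with a difference of -1.31 ± 0.30 (adjusted p = 0.0276), with overlapping libraries, and the call was lost without any variety but Cutter Valencia (0.0565 to 0.0947). In pulp it had 11.1, 11.4 and 11.5 FPKM in VO and 15.4, 12.5 and 18.4 FPKM in CO (adjusted p = 0.0779).

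Of 11 genes matching flavonoid regulators, 3 were kept. MYB305 (Cs2g27940), which activates phenylalanine ammonia-lyase and flavonoid genes in snapdragon flowers, had 6.22, 13.4 and 5.61 FPKM in VO pulp and 0.484, 0.839 and 1.20 FPKM in CO pulp. Every VO library was above every CO library, by 3.15 ± 0.41 (adjusted p = 0.00451). In peel it had 0.318, 0.374 and 0.441 FPKM in VO and 0.116, 0.0904 and 0.216 FPKM in CO, a difference of 1.01 ± 0.29 that just missed the threshold (adjusted p = 0.0508).

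The other kept members of this group were MYB5 (Cs9g03070), a regulator of seed coat tannin and mucilage, and MYB111 (Cs9g02640), an activator of flavonol genes. MYB5 had 19.1, 18.04 and 12.6 FPKM in VO pulp and 15.9, 6.05 and 12.7 FPKM in CO pulp (adjusted p = 0.271). MYB111 had 10.1, 9.05 and 12.1 FPKM in VO pulp and 11.0, 8.37 and 11.3 FPKM in CO pulp (adjusted p = 0.906). Both therefore overlapped between groups in the tissue where they were abundant. The second annotation names Cs9g03070 MYB34 and Cs9g02640 a myb-related protein Myb4.

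Among flavonoid enzymes 3 of 13 tested were called in pulp, all higher in VO, beside 19.5% of all genes called and 12.0% called higher. They were chalcone synthase 2 (Cs2g14720) with 8.44 FPKM in VO and 0.758 FPKM in CO and a pair of chalcone isomerases (Cs7g28130 and Cs7g29780) with 3.61 and 8.44 FPKM in VO and 0.621 and 1.22 FPKM in CO. In peel 1 of 16 was called, beside 20.4% of all genes, a chalcone synthase (Cs9g17060) at 0.503 FPKM in VO and 0.112 FPKM in CO. It was kept in peel through VO alone, so the filter favours that direction. Of 8 bHLH, WD40 and homeobox genes listed as partners, 5 were tested in each tissue. In pulp 2 were called, both higher in VO, beside 19.5% of all genes, and in peel 3, 1 higher and 2 lower, beside 20.4%. One match to the bHLH partner GLABRA 3 (Cs5g03530), which binds MYB proteins in Arabidopsis epidermal cells, was higher in VO pulp (1.17 FPKM in VO and 0.140 FPKM in CO, 2.42 ± 0.21, adjusted p = 0.00176) and lower in VO peel (0.206 FPKM in VO and 0.911 FPKM in CO, -1.72 ± 0.25, adjusted p = 0.00753). The other match (orange1.1t00363) was also higher in VO pulp (0.656 FPKM in VO and 0.138 FPKM in CO, 1.73 ± 0.33, adjusted p = 0.0157), while in peel it averaged 0.712 FPKM in VO and 0.534 FPKM in CO (adjusted p = 0.35). Each called difference of these GLABRA 3 matches had a lower group under 0.3 FPKM and was kept through the other group alone. The filter therefore favours its direction.

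Of 14 GARP genes tested in peel 4 were called, 2 in each direction, beside 20.4% of all genes, and of 10 in pulp 2, 1 in each direction, beside 19.5%, shares near the background. The gene matching the putative factor At1g14600 (Cs3g02020) had 1.60, 1.39 and 1.42 FPKM in VO peel and 8.44, 8.27 and 6.72 FPKM in CO peel. In pulp it had 1.87, 1.43 and 1.37 FPKM in VO and 7.74, 5.91 and 5.16 FPKM in CO. The groups were far apart beside their spread, by -2.33 ± 0.12 in peel at an adjusted p of 0.000569 and -1.94 ± 0.18 in pulp (adjusted p = 0.00187). Its second annotation is the cytokinin response regulator ARR12.

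EFM (Cs5g34230), which represses flowering in Arabidopsis, was higher in VO, with 9.49, 12.6 and 9.64 FPKM in VO pulp and 4.04, 3.09 and 3.21 FPKM in CO pulp (1.59 ± 0.15, adjusted p = 0.00187). In peel it had 7.62, 12.5 and 6.61 FPKM in VO and 5.28, 2.85 and 3.56 FPKM in CO (1.16 ± 0.30, adjusted p = 0.0385), a call lost without any variety but Jincheng (0.0557 to 0.116). PHL8 (Cs7g03680), a PHR1 relative, had 5.39, 7.14 and 6.15 FPKM in VO peel and 2.32, 2.02 and 1.93 FPKM in CO peel (1.53 ± 0.13, adjusted p = 0.00174), and missed the threshold in pulp (adjusted p = 0.0929). PHL5 (orange1.1t02260), another relative, had 6 fragments in VO peel over 9 libraries and averaged 0.553 FPKM in CO peel (-2.17 ± 0.58, adjusted p = 0.0431). It was kept through CO alone, the group where it is high, and its call was lost without any variety but Jincheng (0.0802 to 0.145).

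Genes matching stress and hormone regulators were the most numerous group, with 28 members, of which 15 were kept in peel and 12 in pulp. In peel 3 were called, 1 higher and 2 lower in VO, beside 20.4% of all genes, which is a share near the background, and in pulp 4, with 2 in each direction, beside 19.5%. A further match to MYB44 (Cs3g23950) had 17.5, 14.7 and 29.0 FPKM in VO peel and 8.17, 11.9 and 8.05 FPKM in CO peel (1.09 ± 0.27, adjusted p = 0.0358). MYB102, an osmotic stress and wounding regulator, had one match (Cs2g06950) at 0.306, 0.417 and 0.151 FPKM in VO peel and 1.098, 1.24 and 1.23 FPKM in CO peel (-1.84 ± 0.28, adjusted p = 0.00839). Another match to it (Cs1g06220) went the other way in pulp, with 5.04, 5.57 and 6.45 FPKM in VO and 2.05, 3.17 and 3.79 FPKM in CO (0.93 ± 0.22, adjusted p = 0.0318). The second annotation names Cs2g06950 MYB35 and Cs1g06220 MYB39.

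Smaller differences in this group passed the test as well. The rice MYB4 match (Cs8g12680) was lower in VO peel (22.9 FPKM in VO and 32.8 FPKM in CO, -0.51 ± 0.12, adjusted p = 0.0267). In pulp MYB48 (Cs8g17920) averaged 2.95 FPKM in VO and 4.76 FPKM in CO and MYB1 (Cs7g32280) 4.14 FPKM in VO and 5.08 FPKM in CO. MYB62 (Cs7g26930), which acts in phosphate starvation and gibberellin signalling, averaged 9.09 FPKM in VO pulp and 6.38 FPKM in CO pulp (0.51 ± 0.13, adjusted p = 0.0376).

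Single-repeat genes included one that was higher in VO in both tissues. MYB1R1 (Cs5g04740), a drought regulator of potato, had 84.7, 82.5 and 74.6 FPKM in VO peel and 53.9, 43.3 and 46.3 FPKM in CO peel. In pulp it had 47.2, 52.9 and 56.8 FPKM in VO and 33.3, 35.9 and 37.9 FPKM in CO. No library overlapped, and the difference was 0.55 ± 0.09 in pulp (adjusted p = 0.0105) and 0.76 ± 0.10 in peel (adjusted p = 0.00559).

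MYBS1 (Cs7g26290), a sugar-responsive activator of alpha-amylase in rice, had 7.49, 6.19 and 6.37 FPKM in VO pulp and 4.75, 3.53 and 3.75 FPKM in CO pulp (0.74 ± 0.14, adjusted p = 0.0142, lost without Rohde Red Valencia at 0.0512). The telomere-binding type single myb histone 5 (Cs8g02020) averaged 5.77 FPKM in VO pulp and 7.75 FPKM in CO pulp (-0.41 ± 0.10, adjusted p = 0.0387). LIMYB, which joins an immune receptor to the silencing of ribosomal protein genes in Arabidopsis, had 23 matches, 9 of them kept in each tissue. One of these (Cs8g02890) was higher in VO in both tissues, with 1.78, 1.53 and 1.36 FPKM in VO pulp and 0.408, 0.574 and 0.408 FPKM in CO pulp (1.54 ± 0.20, adjusted p = 0.00426) and 1.05, 0.682 and 0.849 FPKM in VO peel and 0.334, 0.298 and 0.278 FPKM in CO peel (1.35 ± 0.22, adjusted p = 0.0106).

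The remaining calls were small. A further LIMYB match (Cs3g25960) averaged 7.64 FPKM in VO peel and 9.55 FPKM in CO peel (-0.32 ± 0.07, adjusted p = 0.0217). The cell cycle regulator MYB3R-5 (Cs6g06330) averaged 4.17 FPKM in VO peel and 5.26 FPKM in CO peel (-0.33 ± 0.08, adjusted p = 0.0379). In pulp the match to human DMTF1 (Cs2g10330), which the second annotation names an RNA polymerase I termination factor, averaged 10.6 FPKM in VO and 16.96 FPKM in CO (-0.66 ± 0.14, adjusted p = 0.0212).

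Leaving out each variety in turn, 9 of the 18 peel calls and 8 of the 19 pulp calls stood in every fit. In peel these were MYB16, MYB63, MYB41, MYB1R1, PHL8, the At1g14600 match Cs3g02020, MYB102 Cs2g06950, MYB306 Cs6g21210 and LIMYB Cs8g02890. In pulp they were MYB16, MYB63, MYB305, MYB52, MYB1R1, EFM Cs5g34230, Cs3g02020 and Cs8g02890. MYB63 and MYB52 were kept in pulp through CO alone, so the filter favours their direction. The share of calls over all genes that stood in every fit was not counted. Of the calls not yet said to be lost, those of MYB44 Cs3g23950 and MYB306 Cs7g16380 in peel were lost without Jincheng, Rohde Red Valencia, Cutter Valencia or Xianfeng (adjusted p = 0.0591 to 0.115 and 0.0832 to 0.110). The peel calls of rice MYB4 Cs8g12680 and LIMYB Cs3g25960 were lost without any variety but Taoye (0.0517 to 0.0818 and 0.0507 to 0.068), and that of MYB3R-5 without any but Delta Valencia (0.0683 to 0.110). In pulp the calls of MYB102 Cs1g06220 and DMTF1 Cs2g10330 were lost without any VO variety (0.0606 to 0.113 and 0.0649 to 0.0779), those of MYB48 Cs8g17920 and MYB62 Cs7g26930 without Jincheng, Rohde Red Valencia or Delta Valencia, and for MYB62 also Xianfeng (0.0506 to 0.0922 and 0.0695 to 0.131), that of single myb histone 5 without any variety but Taoye (0.0635 to 0.127), and that of MYB1 Cs7g32280 without any variety (0.0552 to 0.137).

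Peel and pulp of the same varieties were compared to place each regulator in the fruit. In VO 55 of the 72 MYB genes kept in at least 1 tissue were called, 18 higher and 37 lower in pulp, beside 63.8% of all genes (19.3% higher and 44.5% lower). In CO 45 were called, 12 higher and 33 lower in pulp, beside 59.2% (18.4% higher and 40.8% lower). Calls shared by VO and CO numbered 42, of which 11 were higher and 30 lower in pulp in both groups and 1, MYB306 Cs7g16380, ran in opposite directions. Shared calls were not counted over all genes, so these numbers are no result about the members. The median over all genes was -0.24 in VO and -0.21 in CO, and -0.34 and -0.28 over the MYB genes, so small differences lie near the common shift.

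**Figure D3:**
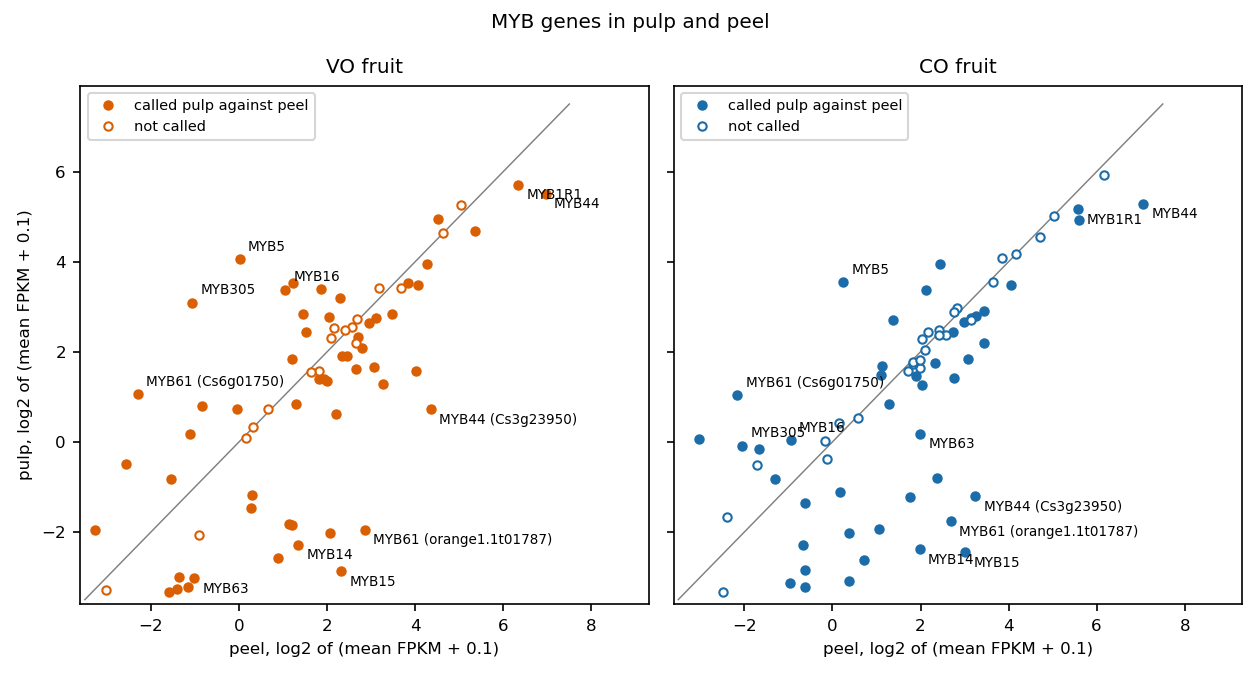
Mean level of the 72 MYB genes kept in at least 1 tissue, in pulp (vertical) and peel (horizontal), as log2 of (mean FPKM + 0.1), for VO on the left and CO on the right. Filled points were called between the tissues and the grey line marks equal levels. MYB5, MYB305 and MYB61 Cs6g01750 lie above the line and MYB15, MYB14 and MYB61 orange1.1t01787 lie below it in both groups.

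Members with the highest pulp level beside peel came from several groups. MYB5 averaged 16.6 FPKM in VO pulp and 0.909 FPKM in VO peel (4.13 ± 0.31, adjusted p = 6.25e-05), and 11.6 FPKM in CO pulp and 1.08 FPKM in CO peel (3.37 ± 0.31, adjusted p = 0.000167). MYB305 was higher in pulp by 4.09 ± 0.29 in VO and 1.96 ± 0.29 in CO, MYB330 by 2.39 ± 0.22 and 1.50 ± 0.22, MYB16 by 2.35 ± 0.14 and 0.99 ± 0.14 and MYB111 by 1.56 ± 0.10 and 1.28 ± 0.10. PHL6 (Cs8g21020), a PHR1 relative, was higher in pulp by 1.39 ± 0.09 in VO and 1.32 ± 0.09 in CO, and the LIMYB match Cs7g06570 by 0.64 ± 0.12 and 0.37 ± 0.12.

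Of 4 matches to MYB61, a regulator of stomata, xylem and seed mucilage in Arabidopsis, the kept pair were called in opposite tissues. The first (Cs6g01750) had 2.13, 1.69 and 2.14 FPKM in VO pulp and 0.121, 0.143 and 0.0443 FPKM in VO peel (3.41 ± 0.31, adjusted p = 0.000127), and 1.20, 1.81 and 2.85 FPKM in CO pulp and 0.151, 0.0467 and 0.173 FPKM in CO peel (3.20 ± 0.31). The other (orange1.1t01787) had 0.178, 0.177 and 0.124 FPKM in VO pulp and 6.26, 7.63 and 7.61 FPKM in VO peel (-4.91 ± 0.13, adjusted p = 4.42e-06), and 0.282, 0.127 and 0.181 FPKM in CO pulp and 8.17, 4.93 and 5.87 FPKM in CO peel (-4.48 ± 0.13). Each was found in the same tissue in all 6 varieties. The second annotation names Cs6g01750 MYB86 and orange1.1t01787 MYB35, so their identity as MYB61 is not settled by the descriptions.

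Of the 15 stress and hormone regulators kept, 11 were lower in pulp in VO, beside 44.5% of all genes, and 8 in CO, beside 40.8%, and the group was not tested as such. MYB15 (Cs9g10480), which acts in cold response and defence lignin, had 0.0350, 0.0249 and 0.0498 FPKM in VO pulp and 3.99, 5.15 and 5.50 FPKM in VO peel (-5.23 ± 0.38, adjusted p = 5.51e-05). In CO it had 0.117, 0.0257 and 0.106 FPKM in pulp and 4.82, 12.96 and 6.08 FPKM in peel (-5.46 ± 0.38, adjusted p = 5.94e-05). MYB14 (Cs5g29830), another cold regulator, differed between pulp and peel by -3.71 ± 0.25 in VO and -4.37 ± 0.25 in CO, and MYB44 Cs3g23950 by -3.99 ± 0.35 and -4.52 ± 0.35.

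Other members were far lower in pulp too. APL (orange1.1t03247), which sets phloem identity in Arabidopsis, had 0.175, 0.0431 and 0.217 FPKM in VO pulp and 3.73, 4.503 and 4.02 FPKM in VO peel (-4.25 ± 0.49), and 0.271, 0.674 and 0.0391 FPKM in CO pulp and 3.58, 2.73 and 3.52 FPKM in CO peel (-3.33 ± 0.49). A second EFM match (Cs4g17160) differed between pulp and peel by -3.55 ± 0.29 in VO and -3.39 ± 0.29 in CO. The first EFM match (Cs5g34230) averaged 10.6 FPKM in VO pulp and 8.92 FPKM in VO peel (adjusted p = 0.0877), and 3.45 FPKM in CO pulp and 3.90 FPKM in CO peel (adjusted p = 0.373), and the difference between the 2 matches was not tested. Myb-related protein 2 (Cs5g26420), a GARP protein, MYB62 Cs2g12700 and MYB20 were also lower in pulp in both groups, with differences of -3.19 ± 0.42, -2.64 ± 0.73 and -1.62 ± 0.29 in VO and -3.14 ± 0.42, -2.47 ± 0.73 and -3.23 ± 0.29 in CO.

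The VO minus CO difference was unlike in pulp and peel for 7 of the 72 MYB genes, beside 7.05% of all genes, a share near the background. For 4 of them the difference was higher in pulp (3.81% of all genes) and for 3 lower (3.24%). Besides MYB16 they were MYB305 (larger in pulp by 2.14, adjusted p = 0.0332), MYB306 Cs7g16380 (1.45, adjusted p = 0.0438), MYBS1 (0.82, adjusted p = 0.0449), MYB52 (-1.92, adjusted p = 0.04), MYB44 Cs8g05000 (-1.21, adjusted p = 0.0387) and MYB1 Cs7g32280 (-0.53, adjusted p = 0.0438). Cs8g05000 had 1.96, 3.39 and 3.30 FPKM in VO pulp and 3.56, 5.39 and 4.58 FPKM in CO pulp, against 14.2, 12.96 and 20.9 FPKM in VO peel and 10.1, 13.1 and 9.18 FPKM in CO peel. No call among the 7 stood with every variety left out in turn. Of the 7, 0 stayed called without Rohde Red Valencia or Xianfeng and 1 without Delta or Cutter Valencia. Without Jincheng 2 stayed called and without Taoye 4.

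Varieties of one group differed among themselves as well, tested with the libraries as replicates, and here the p-values reflect variation among libraries that may in part be technical. In VO 29 of 69 MYB genes were called in peel (41.1% of all genes) and 21 of 62 in pulp (28.4%). In CO 27 were called in peel (40.1%) and 37 in pulp (54.8%). Of those called among VO varieties, 20 in peel and 13 in pulp were not called between VO and CO, and of those called among CO varieties 20 and 26 were not. The same was not counted over all genes.

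**Figure D4:**
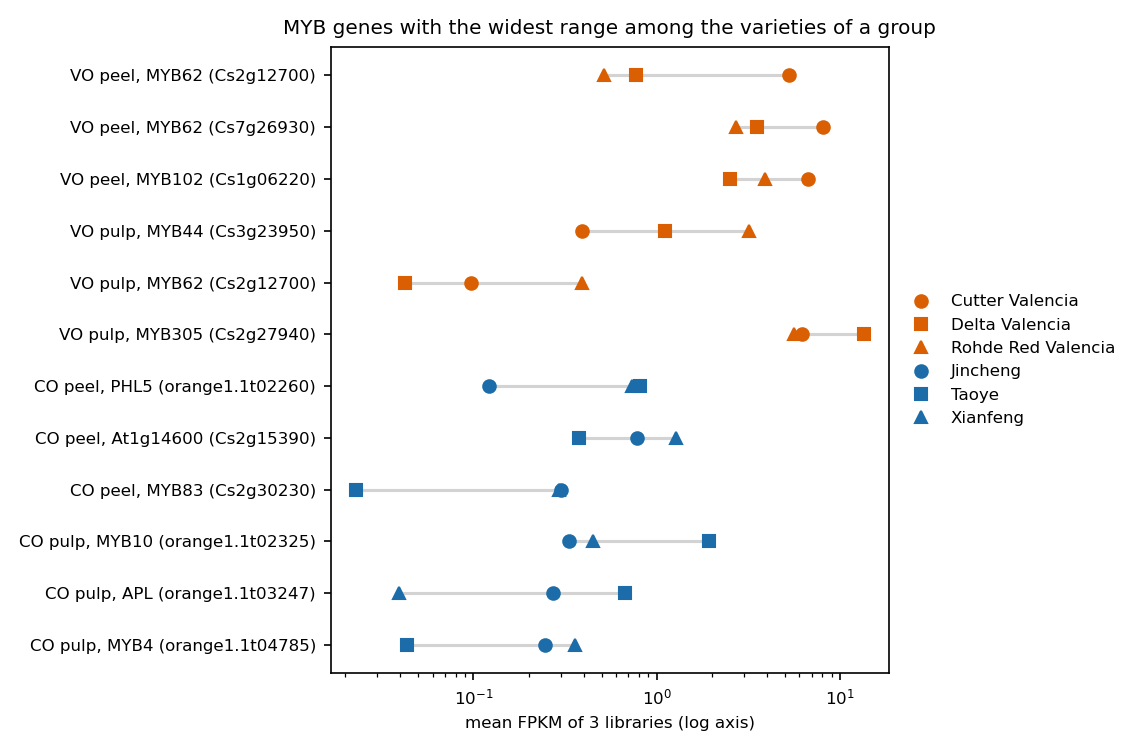
Mean FPKM (log axis) of each variety for the 3 called MYB genes with the widest range in each group and tissue, with VO rows above CO rows. Each point is the mean of 3 libraries of a variety and the grey line joins the lowest and the highest. MYB62 Cs2g12700 ran from 0.519 to 5.29 FPKM among VO peels and the MYB10 match from 0.333 to 1.94 FPKM among CO pulps.

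In VO peel the 3 genes with the widest range, which is what they were chosen for, were 2 matches to MYB62 and 1 to MYB102. MYB62 Cs2g12700 had 5.29 FPKM in Cutter Valencia, 0.773 in Delta Valencia and 0.519 in Rohde Red Valencia peel (range 3.13 on the log2 scale, adjusted p = 7.42e-06). The other MYB62 match (Cs7g26930) had 8.08, 3.54 and 2.72 FPKM (range 1.55, adjusted p = 5.31e-07) and MYB102 Cs1g06220 had 6.69, 2.52 and 3.90 FPKM (range 1.39, adjusted p = 4.9e-07). All 3 were highest in Cutter Valencia peel, and none of them was called between VO and CO in peel.

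In VO pulp Rohde Red Valencia was highest for MYB44 Cs3g23950, with 0.392, 1.11 and 3.17 FPKM (range 2.73, adjusted p = 8.65e-05), and for MYB62 Cs2g12700, with 0.0967, 0.0421 and 0.391 FPKM (range 1.80, adjusted p = 0.0414). MYB305 was highest in Delta Valencia (range 1.24, adjusted p = 6.58e-06), while its lowest VO value of 5.61 FPKM remained above the highest CO value of 1.20 FPKM. In CO peel the widest ranges belonged to PHL5 orange1.1t02260 with 0.122, 0.807 and 0.729 FPKM (range 2.03, adjusted p = 2.29e-05), to a further At1g14600 match (Cs2g15390) with 0.782, 0.378 and 1.28 FPKM (range 1.76, adjusted p = 0.00979), and to MYB83 with 0.299, 0.0229 and 0.291 FPKM (range 1.70, adjusted p = 0.00306).

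The 3 widest ranges in CO pulp, genes chosen for that range, were these. The match to the iron regulator MYB10 (orange1.1t02325) had 0.333, 1.94 and 0.452 FPKM in Jincheng, Taoye and Xianfeng pulp (range 2.62, adjusted p = 0.00147), and as 3 further MYB genes share its citrus protein match, reads could be split among copies. APL had 0.271, 0.674 and 0.0391 FPKM (range 2.38, adjusted p = 0.000994). The Arabidopsis-type repressor MYB4 (orange1.1t04785) had 0.245, 0.0437 and 0.359 FPKM (range 1.67, adjusted p = 0.0264).

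The genes whose 36 library values ran most like the most changed MYB gene of each tissue are given as a description, since all share the same libraries. Beside MYB63 they were UDP-glycosyltransferase 86A1 (orange1.1t02409, Pearson's r = 0.961), red chlorophyll catabolite reductase (Cs1g22680, 0.951), WD repeat-containing protein 44 (Cs1g06840, 0.949), VPS45 (Cs3g20920, 0.948) and the copper-transporting ATPase HMA4 (Cs2g29970, 0.943). Beside MYB16 they were Cs7g21245 (0.974), Cs5g08720 (0.972) and Cs6g11600 (0.967), which carry no description, the aquaporin PIP1-2 (Cs5g03460, 0.967) and phosphopantothenoylcysteine decarboxylase (Cs5g06710, 0.961). Photosynthetic genes, a sign of how green the fruit were, summed to 136 to 264 FPKM in VO peel and 33.2 to 96.1 FPKM in CO peel, and to 50.7 to 67.5 FPKM in VO pulp and 16.7 to 23.7 FPKM in CO pulp. Of these 13 genes 9 were called higher in VO peel, beside 13.2% of all genes, and 10 of the 12 tested in VO pulp, beside 12.0%. The part of fruit maturity in the MYB differences cannot be told apart from that of the variety group.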

How the data were processed

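RNA-seq values came from one deposited table of FPKM per gene and library, with gene length and protein descriptions. According to the submitters' processing notes, the authors aligned reads with TopHat2, quantified them with RSEM and used DESeq (version 1.10.1); the study names the C. sinensis genome, and its build is not given in the sources used here. The deposited FPKM values were not scaled further here. FPKM times length fell on whole multiples of a step in each library (tolerance 0.02 fragments), which gave the mapped fragments per library. Counting error is included in the spread between varieties.

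The MYB genes and the lists set beside them were chosen with earlier results of these data known. After the values were seen, 1 gene that matched by a chance part of its name was taken out of the cuticle list and 1 out of the NAC list. Genes were kept where one or more varieties averaged 0.3 FPKM or above, and log2(FPKM + 0.1) was tested in limma (3.58.1, under R 4.3.3), moderated with a trend of variance on level, with two-sided Benjamini-Hochberg adjusted p over all genes kept. VO and CO were compared over 3 variety means each, pulp and peel within varieties, and varieties over libraries by an F test. An exact permutation test of 3 against 3 cannot go below 0.10 and was not used. The design fixed limma on FPKM because the study's DESeq counts were not used here. Scripts were tested on simulated data. Named genes were, per comparison, the called members with the largest change (at least 1 FPKM in the higher group), the 10 most abundant per tissue, all called for a difference between tissues, the 10 largest tissue differences each way, the 3 widest variety ranges per group and tissue, and the most abundant of each role. The match to MYB113 was named beside them after its values were seen. Roles follow the matched protein. Alternatives covered the pseudocount, low filter, scaling, trend, recovered fragments with voom, replicate unit and left-out varieties or libraries. Tables were handled in Python 3.11.15 with pandas 2.3.3 and plots drawn with matplotlib 3.10.9. No sequences were read, as no sequence of the table's gene models was used here.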

Additional observations from a re-analysis of the deposited data

Results flagged for a closer look

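The 64 sets of 9 libraries examined were drawn from the called genes, each set being 1 gene in a variety group and tissue. In 5 of them a single library lay apart by more than Dixon's 95% limit. For independent values chance gives this in about 1 set in 20. The 9 libraries are 3 from each of 3 varieties and are not independent, so that rate does not hold here. MYB3R-5 (Cs6g06330) had 5.13 FPKM in library 2 of Delta Valencia peel, beside 4.32 FPKM in the next highest VO peel library. DMTF1 (Cs2g10330) had 12.3 FPKM in library 3 of Delta Valencia pulp, beside 10.9 FPKM in the next. LIMYB (Cs3g25960) had 11.5 FPKM in library 2 of Jincheng peel, beside 9.83 FPKM, and EFM (Cs5g34230) had 4.84 FPKM in library 3 of Jincheng pulp, beside 3.69 FPKM. MYB306 (Cs5g10670) was lowest, at 5.43 FPKM, in library 3 of Taoye peel, beside 6.35 FPKM in the next lowest.

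For 7 genes the VO minus CO difference in pulp differed from that in peel in limma. It was larger in pulp by 2.14 for MYB305 (Cs2g27940, adjusted p = 0.0332), 1.45 for MYB306 (Cs7g16380, 0.0438), 1.36 for MYB16 (Cs6g21530, 0.0186) and 0.82 for MYBS1 (Cs7g26290, 0.0449) on the log2 scale. It was lower in pulp for MYB52 (Cs3g20590, -1.92, 0.04), MYB44 (Cs8g05000, -1.21, 0.0387) and MYB1 (Cs7g32280, -0.53, 0.0438). MYB52 had 1 fragment in VO peel and 5 in CO peel, so its difference between tissues depends on the pseudocount.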

How the results depend on the processing

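Of the results for single named genes under the alternatives, 1652 kept their side of the threshold, 189 lost the call and 25 gained one. None that was called in either fit turned round. A change of sign where neither fit called the gene was counted among the 1652. The counts of MYB genes that moved by over 1.5 times are given next, together with some that moved less. For the difference between tissues, 7 of 72 became 3 with a pseudocount of 0.01. The count was 3 of 118 without the low filter and 4 of 91 with TPM. Over all genes 1328 of 18838 became 1012 of 18838, 1034 of 24264 and 1109 of 20976 in these settings. The MYB count was 3 without a trend, 4 to 5 without one library number and 0 to 6 with a variety left out. Counts over all genes are not given for these last settings. For VO against CO a fold of at least 2 left 11 in peel and 10 in pulp, and leaving out a variety gave 9 to 16 in peel (9 without Rohde Red Valencia or Xianfeng) and 8 to 19 in pulp (8 without Rohde Red Valencia, 10 without Delta Valencia). Fewer varieties enter those fits. For all 9 comparisons a pseudocount of 1 left 2 in peel and 4 in pulp. Over all genes it left 193 in peel and 279 in pulp, beside 516 and 652 as reported. Leaving out a variety gave 5 to 8 in peel (8 without Cutter Valencia) and 7 to 10 in pulp. Where a variety or library number was left out, or a fold of at least 2 was required, only MYB counts are given. Without one library number VO against CO gave 16 to 17 in each tissue, and among VO pulps the count was 12 to 18 (12 without replicate 2), or 22 to 23 with a CO variety left out. Where not stated, the cause was not tested. Replicate numbers were not used to pair the samples in the main fits. Deviations of peel and pulp libraries with the same number correlated at -0.018 to 0.034 and those with other numbers at -0.051 to 0.049. Such correlations cannot decide whether libraries with the same number came from the same fruit. With libraries as replicates and the replicate block, 36 were called in peel, 33 in pulp and 33 for the difference between tissues. Over all genes 9053 of 18375, 8882 of 17222 and 7236 of 18838 were called. This setting treats the 3 libraries of a variety as independent replicates of its group, so its counts do not reflect the spread between varieties. For the difference between tissues it pairs peel and pulp by library number. Between pulp and peel, scaling moved the median of all genes in VO and CO from -0.24 and -0.21 to -0.10 and -0.11 by median ratio and to -0.41 and -0.38 by TPM. The calls in VO were then 4780 higher and 6753 lower over all genes by median ratio, beside 3644 and 8383 as reported, and 20 higher and 35 lower among MYB genes. Members near 0.3 FPKM rest on few fragments, and smaller differences were not detectable with 3 varieties per group.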
